A study of Capra hircus with 3 samples.

Results

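Oxidative phosphorylation is the mitochondrial process that moves electrons from NADH and succinate through complexes I to IV to oxygen and uses the resulting proton gradient to drive ATP synthase. Its subunits come from both genomes: most are nuclear genes whose proteins are imported, and a small core is encoded by the mitochondrial DNA itself, which is copied and transcribed within the organelle. Complex II is wholly nuclear, and several complex IV subunits exist as pairs of a general and a tissue-restricted isoform, some of the latter known from testis, heart or muscle. Fetal male germ cells, oocytes and Sertoli cells are known to differ in mitochondrial number and form, and Sertoli cells are known to support germ cells with lactate.

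The members were taken by symbol from the gene lists deposited with single-cell RNA counts of goat (Capra hircus) fetal gonads. All genes named NDUFA, NDUFB, NDUFC, NDUFS, NDUFV, ATP5, UQCR or COX4 to COX8, the SDHA to SDHD genes and the 13 protein-coding mitochondrial genes were included. This gave 62 of 27271 features, 16616 of which carry a symbol. Of the members, 49 were nuclear. They comprised 25 complex I subunits, 4 complex I assembly factors of the NDUFAF series, 2 complex II subunits (SDHC and SDHD), 4 complex III subunits, 7 complex IV subunits, the supercomplex factor COX7A2L, 5 ATP synthase subunits and the ATP synthase inhibitor ATP5IF1. The 43 subunits of the 5 complexes are called nuclear subunits below. Further subunit genes, among them COX4I1, COX7A2 and NDUFA4, were not analysed here.

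Cells were isolated by enzyme digestion from gonads that the labels give as male goat testis at embryonic stages E85, E105 and E125, and were profiled by droplet 10x Genomics sequencing, which counts unique molecular identifiers (UMIs, 1 per captured RNA molecule) at the 3′ end. Each stage had 1 library with no treatment or genotype difference stated, the number of animals behind a library is not given in the sources used here, and stages could therefore be compared only as single libraries, with no test and no replicate spread. The 3 libraries held 7478, 8520 and 8346 barcodes with 45339231, 40741902 and 49692252 UMIs, and shared 9 to 14 barcodes in pairs. The library labelled E125 goes against its label: AMH, the Sertoli hormone, had, in library order, 1365, 3690 and 31.1 UMIs per 1000000 UMIs (CPM), whereas ZP3, an oocyte coat gene, was at 1.43, 4.12 and 2081 CPM. It held 3 barcodes that passed the Sertoli gate, so in every comparison with it below, stage and kind of tissue cannot be told apart.

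Barcodes were assigned to classes by marker genes, with at least 3 of 8 class markers on and 2 more than for any other class, among barcodes with at least 1000 UMIs, 500 genes and no more than 20% mitochondrial UMIs. Classes with at least 50 cells in a library were used. These were Sertoli-like cells (2464 at E85 and 1947 at E105), germ-like cells (237 and 88), stromal-like cells (2178, 3411 and 4073 over the 3 libraries), endothelial-like cells (264, 240 and 636), macrophage-like cells (87, 123 and 61) and lymphoid-like cells (60 and 141). The library labelled E125 added oocyte-like (112), pregranulosa-like (375) and mural-like (65) cells. Median UMIs per cell ranged from 2064 in E85 stroma to 19043.5 in E105 germ-like cells and 86539 in oocyte-like cells. In oocyte-like cells the median number of germ markers on was 7, against 6 of their own, and oocytes are themselves germ cells. All intervals below are exact 95% intervals and cover counting error only, not variation between animals or libraries.

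Germ-like cells stood apart in their share of mitochondrial UMIs. In these cells the 13 mitochondrial genes gave 8.07% of all UMIs at E85 (interval 8.04 to 8.09%) and 8.24% at E105 (8.20 to 8.28%). The other 5 classes of these libraries lay between 3.22% and 4.97%. Sertoli-like cells were at 4.61% and 4.10%, and stromal-like cells were lowest at E85 with 3.22%. The median germ-like cell was at 7.93% and 8.51%, with quartiles of 6.52 to 9.38% and 6.61 to 10.1%. The lower quartile of germ-like cells was thus above the upper quartile of Sertoli-like cells, 5.18% and 5.08%.

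**Figure D1:**
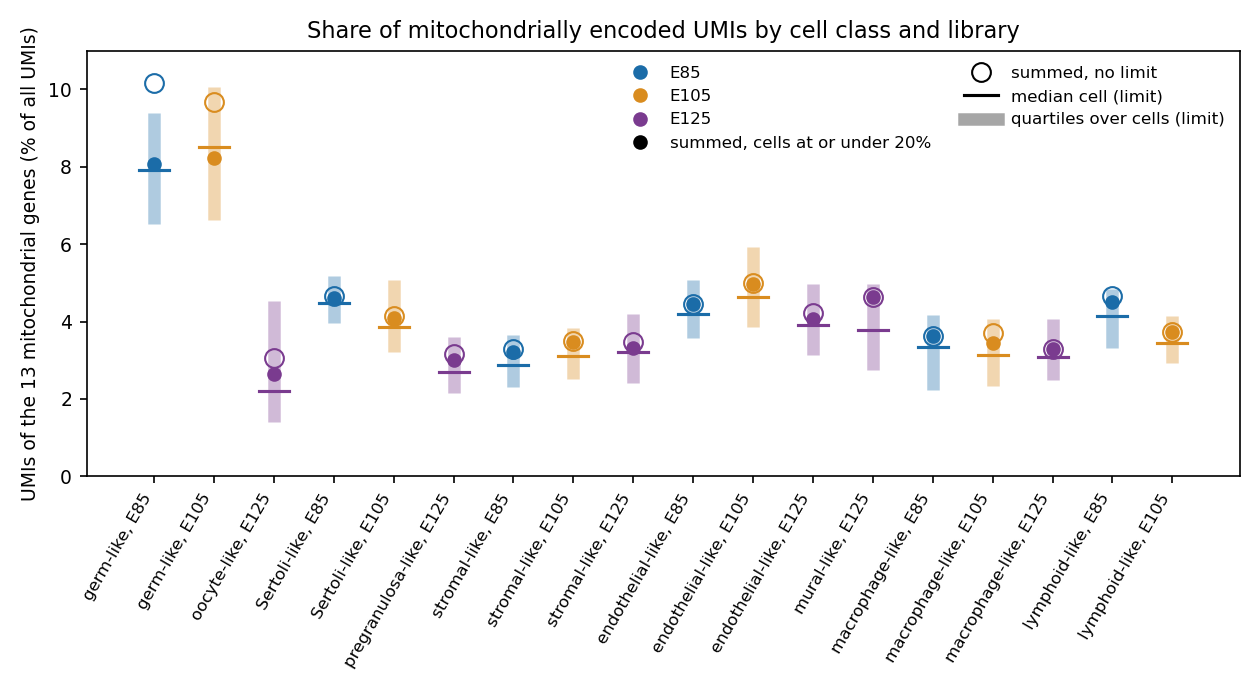
UMIs of the 13 mitochondrial genes as a percentage of all UMIs (y axis) for each cell class and library (x axis). Filled points are summed over cells at or under the 20% limit, open points are summed without the limit, short lines are median cells and bars run between the quartiles over cells. The 2 germ-like points stand at 8.07% and 8.24%, above every other class.

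The difference was also present among cells of like depth. Among cells with 10000 to 30000 UMIs, the median mitochondrial share was 7.69% in 176 germ-like and 4.34% in 1343 Sertoli-like cells at E85, and 8.44% in 59 and 3.60% in 981 cells at E105. Shallower cells of both classes had higher shares: germ-like cells with 3000 to 10000 UMIs were at 14.4% and 16%, and Sertoli-like cells with 1000 to 3000 UMIs at 11.2% and 13.2%. The 20% limit also removed more of the germ gate than of any other gate. It took 79 of 316 germ-gated barcodes at E85 (25%) and 22 of 110 at E105 (20%), against 27 of 2491 (1.08%) and 21 of 1968 (1.07%) Sertoli-gated barcodes. The germ-gated barcodes above the limit had medians of 6002 and 6054 UMIs, against 18853 and 19043.5 in those kept. Without the limit the germ-like share was 10.2% and 9.68%. Whether the barcodes above the limit are damaged cells was not tested.

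The nuclear subunits did not follow the mitochondrial genes. Summed over the 43 genes, germ-like cells had 9979 CPM at E85 and 10668 CPM at E105, and Sertoli-like cells 9744 and 9277 CPM. The summed germ-to-Sertoli ratio was therefore 1.02 (1.01 to 1.03) and 1.15 (1.13 to 1.17) for nuclear subunits, but 1.75 (1.74 to 1.75) and 2.01 for mitochondrial genes. The median log2 ratio of the mitochondrial genes was 0.80 and 0.88, somewhat below the 0.99 and 1.06 over all features. Of 12 mitochondrial genes, 8 and 9 were at least 1.5 times higher and 0 and 1 lower. Over all features 59.5% and 60.9% were higher. Per nuclear subunit UMI, germ-like cells had 8.08 and 7.72 mitochondrial UMIs, Sertoli-like cells 4.74 and 4.42. All other classes at E85 and E105 lay between 3.65 (stroma at E85) and 6.33 (endothelium at E105). These counts do not give the number of mitochondria or of genome copies.

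**Figure D2:**
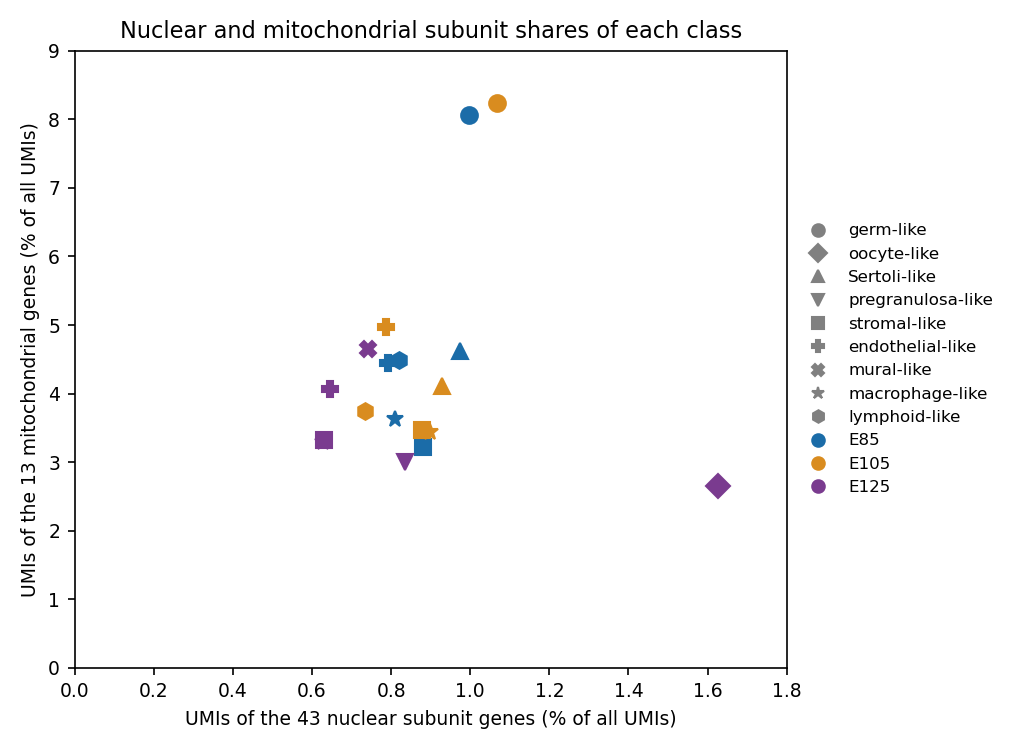
Percentage of UMIs from the 43 nuclear subunit genes (x axis) against that from the 13 mitochondrial genes (y axis), 1 point per class and library. Germ-like cells stand apart on the mitochondrial axis (8.07% and 8.24%) and oocyte-like cells on the nuclear axis (1.63%).

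The difference from Sertoli-like cells was uneven between complexes. Of 42 nuclear subunits with at least 20 UMIs over both classes, 10 were at least 1.5 times higher and 8 lower in germ-like cells at E85, and 13 and 7 at E105. Over all features 59.5% were higher and 18.4% lower at E85, and 60.9% and 18.2% at E105, so the share of nuclear subunits that were higher was below the background in both libraries. Their median log2 ratio was 0.06 and 0.30, against 0.99 and 1.06 over all features. Complex I, which takes electrons from NADH, was summed 1.11 and 1.24 times higher in germ-like cells, and complex IV, which passes them to oxygen, 1.11 and 1.30 times. Complex III and ATP synthase were lower as sums, at 0.706 and 0.860 times and at 0.757 and 0.837 times. Their single subunits were mixed. Of 4 complex III subunits, 1 was at least 1.5 times higher and 2 lower at E85, and 1 and 1 at E105. Of 5 ATP synthase subunits, 0 were higher and 2 lower at E85, and 1 and 1 at E105. The inhibitor ATP5IF1, which blocks reverse rotation of ATP synthase, was at 133 and 169 CPM in germ-like cells and at 519 and 480 CPM in Sertoli-like cells. Germ-like cells were the lowest class for it in both libraries.

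Some members were higher in germ-like cells than in each other class of the same library. A member was called class-enriched where its CPM was at least 2 times that of every other class in every library that held the class. This held for 7 of 56 germ-like members with at least 20 UMIs, while 23.9% of all features met it in germ-like cells, a larger share than among the members. COX7B2, a testis-restricted isoform of a complex IV subunit, was at 87.7 CPM (407 UMIs) at E85 and 83.6 CPM (147 UMIs) at E105, and reached no more than 2.39 CPM in any other class of these libraries. In Sertoli-like cells it was at 0.601 and 0.0991 CPM (16 and 2 UMIs). NDUFB2, an accessory subunit of the complex I membrane arm, was at 519 and 655 CPM against 170 and 148 CPM in the next class. NDUFV1, the complex I subunit that binds NADH, was at 450 and 396 CPM in germ-like and 186 and 172 CPM in Sertoli-like cells. NDUFAF1, a complex I assembly factor, was at 59.9 and 67.7 CPM against 24.8 and 26.2 CPM in the next class. Germ-like cells were the highest class for each of these 4 genes in both libraries.

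The other class-enriched members of germ-like cells were mitochondrial genes: ND2 and ND5, 2 proton-pumping subunits of complex I, and COX1, the catalytic subunit of complex IV. ND2 was at 8345 and 10549 CPM in germ-like cells, against 2183 and 2011 CPM in Sertoli-like cells. ND5 was at 1743 and 2020 CPM against 616 and 627 CPM. COX1 was at 21963 and 25317 CPM against 10462 and 10060 CPM. By contrast COX2, which accepts electrons from cytochrome c, was at 11969 and 9250 CPM in germ-like cells and at 10421 and 8722 CPM in Sertoli-like cells. As a share of all mitochondrial UMIs, ND2 made up 10.3% and 12.8% in germ-like cells against 4.73% and 4.90% in Sertoli-like cells, and COX2 14.8% and 11.2% against 22.6% and 21.2%. The mitochondrial genes were thus not raised in one proportion. Of the 13, germ-like cells had the highest level of any class for 12 at E85 and 10 at E105, and they were highest for 39.5% and 40.8% of all features with at least 20 UMIs. The 12 at E85 include ATP8, which had only 2 UMIs in germ-like cells and would not meet that minimum.

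A pair of these genes cannot be read on their own. ATP8 and ATP6 overlap on 1 messenger, as do ND4L and ND4, so UMIs cannot be told apart between the partners. ATP8 had 12, 6 and 18 UMIs in the 3 libraries, and ND6, the only one of the 13 on the other strand, 664 to 948 UMIs per library. The remaining 11 genes had at least 9422 UMIs in each.

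Oocyte-like cells in the library labelled E125 showed the opposite balance. Their 43 nuclear subunits summed to 16270 CPM (16191 to 16350), whereas the other 5 classes of that library lay between 6285 CPM in macrophage-like and 8356 CPM in pregranulosa-like cells. Their mitochondrial share was 2.66% (2.65 to 2.67%), the lowest of the 18 class and library combinations. They had 1.63 mitochondrial UMIs per nuclear subunit UMI, against 3.60 in pregranulosa-like cells and 8.08 in E85 germ-like cells. The 77 oocyte-like cells with at least 10000 UMIs held 99.0% of the class's UMIs and gave a mitochondrial share of 2.64%. Depth, stage and kind of gonad differ between these oocyte-like cells and the germ-like cells of the other libraries, and their part in the difference was not tested.

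Complex I, which holds 25 of the 43 nuclear subunits, made up most of this difference in level, and complex III had the highest ratio. In pregranulosa-like cells complex I already gave 5901 of the 8356 CPM of the nuclear subunits. Complex I summed to 12440 CPM in oocyte-like cells, and to 4153 to 5901 CPM in the other 5 classes of the library. Oocyte-like cells were the highest class for 33 of 43 nuclear subunits and for 21 of 25 complex I subunits, and for 34.1% of all features with at least 20 UMIs over the classes of that library. Against pregranulosa-like cells, the summed ratio was 2.11 (2.08 to 2.13) for complex I and 2.88 (2.75 to 3.03) for complex III. It was 1.46 (1.41 to 1.5) for complex IV and 1.31 (1.27 to 1.34) for ATP synthase. The single subunit UQCRQ gave 6184 of the 9112 complex III UMIs in oocyte-like cells. Of the 4 complex III subunits, 3 were at least 1.5 times higher than in pregranulosa-like cells and 1 lower. Of 42 nuclear subunits measured in the pair, 23 were at least 1.5 times higher and 4 lower, while 45.8% of all features were higher and 30.7% lower. Their median log2 ratio was 0.76 against 0.36 over all features. For mitochondrial genes the same ratio was 0.883, with 0 of 12 higher and 2 lower.

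Of 58 members tested in oocyte-like cells, 16 were class-enriched, and 25.6% of all features met that rule. Of these 16, 9 were complex I subunits. NDUFB9, an accessory subunit of the membrane arm, was at 1587 CPM against 178 CPM in pregranulosa-like cells, the next class, 8.90 times higher (8.37 to 9.47). It had been at 338 and 367 CPM in germ-like cells. NDUFB2 was at 305 CPM against 56.6 CPM in mural-like cells. NDUFS3, a core subunit of the peripheral arm, was at 704 CPM against 145 CPM, and NDUFAB1, the mitochondrial acyl carrier protein that is also a complex I subunit, at 955 CPM against 221 CPM. NDUFB10, NDUFS7, NDUFV1, NDUFB4 and NDUFA8 were 2.31 to 3.31 times the next class.

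The 7 remaining oocyte-enriched members were spread over the other groups. UQCRQ, a small complex III subunit, was at 620 CPM against 182 CPM, and the complex III core proteins UQCRC1 and UQCRC2 were at 126 and 135 CPM against 34.8 and 50.8 CPM. COX7B2 was at 90.2 CPM (899 UMIs), close to its 87.7 and 83.6 CPM in germ-like cells, and at no more than 4.33 CPM in the other classes of that library, the latter a single UMI in macrophage-like cells. NDUFAF1 was at 78.9 CPM against 25.4 CPM. COX7A2L, a factor that joins complexes III and IV, was at 12.7 CPM against 2.96 CPM. SDHC, a membrane anchor of complex II, was at 2.41 CPM on 24 UMIs, too few for more than a note of its value. Of the members enriched in germ-like cells, COX7B2, NDUFB2, NDUFV1 and NDUFAF1 were therefore enriched in oocyte-like cells too, and the mitochondrial ND2, ND5 and COX1 were not.

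Some nuclear subunits were low in oocyte-like cells. ATP5F1B, the catalytic beta subunit of ATP synthase, was at 102 CPM, against 135 to 236 CPM in the other classes of the library. NDUFB3 was at 77.3 CPM against 77.9 to 148 CPM. NDUFS1, a core iron-sulphur subunit of complex I, was at 8.52 CPM. In the same library it ranged from 7.81 CPM in mural-like to 30.3 CPM in macrophage-like cells, so oocyte-like cells were not the lowest class. In germ-like cells of the other libraries NDUFS1 was at 31.9 and 46.6 CPM. ATP5F1B was also lowest in germ-like cells at both earlier stages, at 147 and 160 CPM. These 3 genes were picked after their values were seen.

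**Figure D3:**
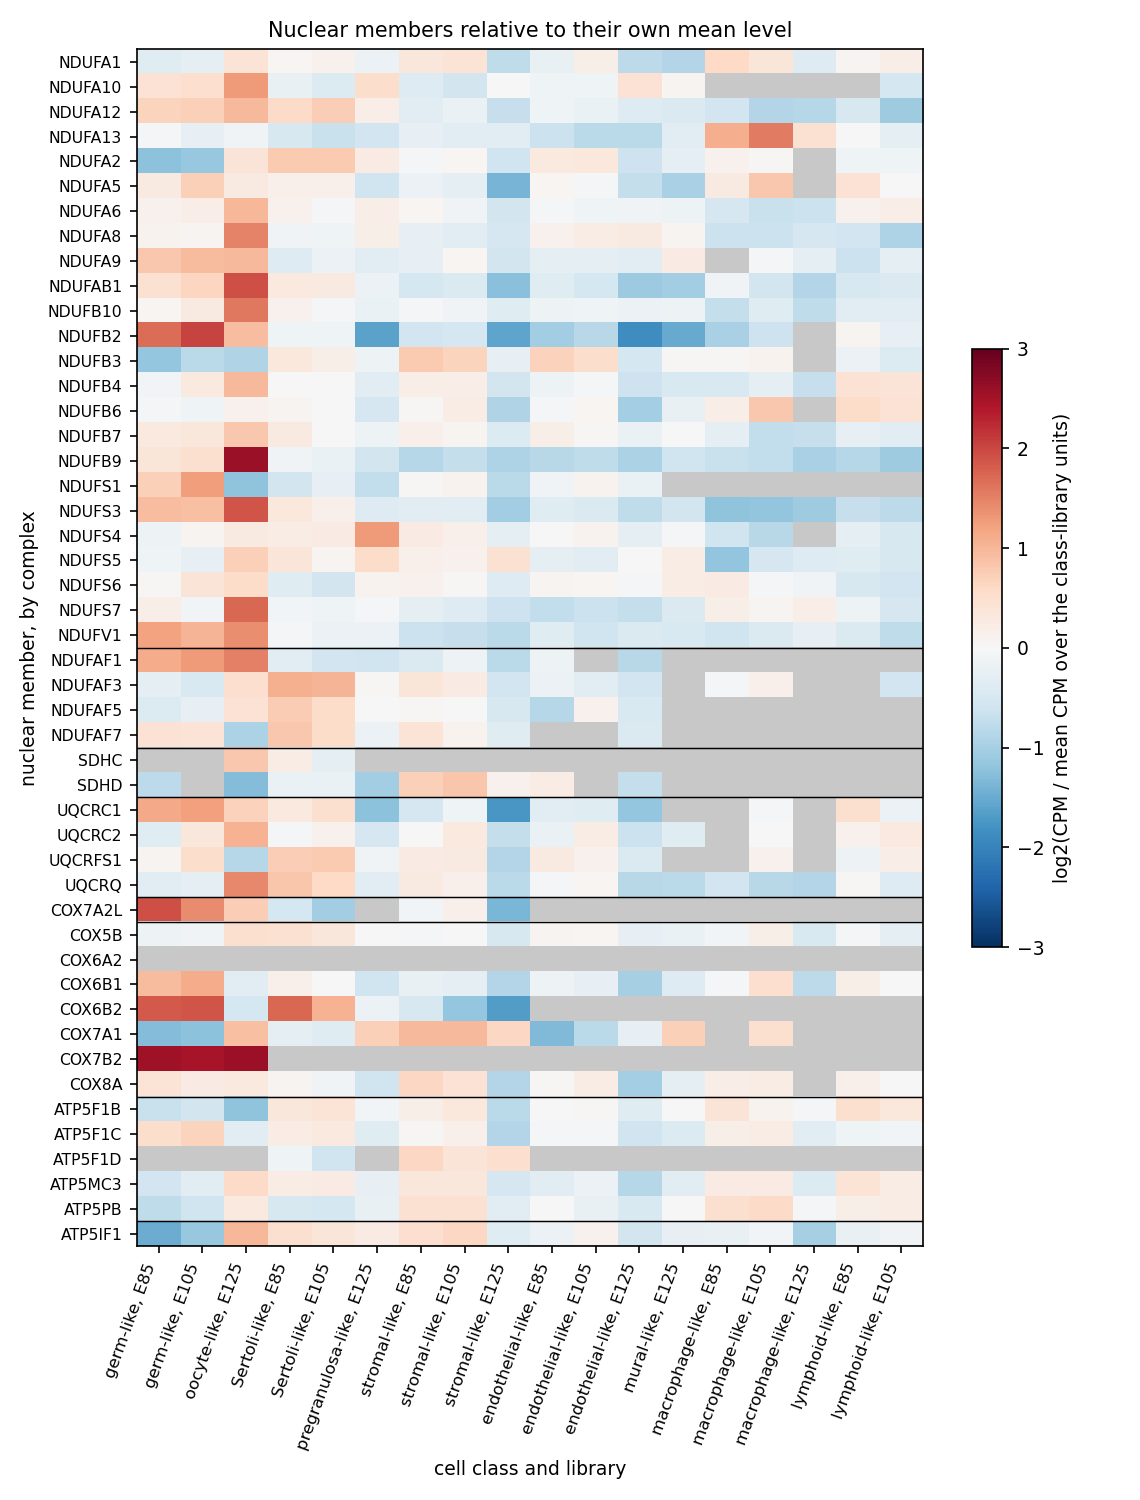
Level of 48 of the 49 nuclear members (rows, grouped by complex) in each cell class and library (columns), as log2 of CPM over the member's mean over the 18 columns; grey marks fewer than 20 UMIs. Red blocks show COX7B2 and NDUFB2 in germ-like and oocyte-like cells, NDUFB9 in oocyte-like cells and NDUFA13 in macrophage-like cells.

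No member met the class-enriched rule in the remaining 7 classes. By that rule 2.85% of all features were enriched in Sertoli-like, 3.33% in pregranulosa-like, 1.34% in stromal-like, 3.13% in endothelial-like, 5.82% in mural-like, 9.40% in macrophage-like and 4.69% in lymphoid-like cells. NDUFA13, a complex I subunit also known as GRIM-19, came close in macrophage-like cells. It was at 1047 CPM (294 UMIs) at E85 and 1447 CPM at E105, against 496 and 417 CPM in the next class, and at 675 CPM (156 UMIs) in the library labelled E125, against 457 CPM in oocyte-like cells. It was thus highest in macrophage-like cells in all 3 libraries, but less than 2 times the next class in the last.

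A pair of further patterns was picked after the values were seen. NDUFS4, a complex I subunit of the peripheral arm, was at 512 CPM in pregranulosa-like cells, against 256 CPM in oocyte-like cells and 73.5 to 205 CPM in the other classes of that library. In Sertoli-like cells, the supporting cells of the testis libraries, it was at 245 and 251 CPM. COX7A1, the heart and muscle isoform of a complex IV subunit, was at 99.8 and 100.5 CPM in stroma at E85 and E105, and at 4.65 and 4.28 CPM in lymphoid-like cells. In the library labelled E125 it ranged from 43 CPM in endothelium to 94.4 CPM in oocyte-like cells.

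Of the 7 isoform pairs of complex IV and NDUFA4 considered, only COX6B2 with COX6B1 had a symbol for both partners. COX6B2 is the testis isoform of a subunit on the intermembrane face of complex IV. Of the UMIs of both, it gave 4.78% (4.37 to 5.21%) in Sertoli-like and 3.03% (2.45 to 3.70%) in germ-like cells at E85, and 3.31% (2.90 to 3.76%) and 2.78% (1.96 to 3.83%) at E105. In stroma it gave 1.4% and 0.895%, and in endothelium, on 1 and 4 UMIs, 0.219% (0.0055 to 1.21%) and 0.973% (0.266 to 2.47%). The stromal values rested on 20 and 21 UMIs of COX6B2. In oocyte-like cells the share was 1.41% (1.00 to 1.93%) and in pregranulosa-like cells 2.20% (1.49 to 3.13%). The general form COX6B1 therefore made up most of the UMIs in each class. The share does not give the level of COX6B2. At E85 and E105 that level was highest in germ-like cells, at 19.8 and 20.5 CPM, against 18.2 and 11.4 CPM in Sertoli-like cells. COX6B1 was also highest in germ-like cells of these libraries, at 634 and 715 CPM. COX6A2, a heart and muscle isoform, had 0 UMIs in germ-like and oocyte-like cells, which allows up to 0.646, 1.71 and 0.301 CPM at 3 counts, and at most 10 UMIs in any class. Its highest level, on these few UMIs, was 8.55 CPM in E105 lymphoid-like cells, against 0.496 CPM in Sertoli-like cells, the next class.

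From E85 to E105 few members passed 1.5-fold within each class, though the summed levels of some classes moved by less than that. A ratio of at least 1.5 or at most its inverse, taken after adding 0.5 UMIs to each library's count and with at least 20 UMIs over both, was reached by 2 of 59 members in Sertoli-like, 2 of 58 in germ-like, 2 of 59 in stromal-like, 2 of 56 in endothelial-like, 7 of 49 in macrophage-like and 2 of 51 in lymphoid-like cells. Over all features the same rule was met by 18.4%, 25.9%, 19.1%, 19.6%, 26.9% and 26.4% in that order. The members' counts were below the background in each class, but this background is not matched for depth. Nuclear members had more UMIs than the median feature in each class. Their medians were 8410 against 362 UMIs in Sertoli-like and 113 against 45 UMIs in macrophage-like cells. A higher minimum was set only for Sertoli-like, germ-like and stromal-like cells. With at least 500 UMIs, the counts were 2 of 55 members in Sertoli-like, 0 of 43 in germ-like and 0 of 49 in stromal-like cells, beside 7.31%, 7.25% and 7.34% of all features.

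In Sertoli-like cells the nuclear subunits were slightly lower as a sum at E105. They went from 9744 to 9277 CPM, a ratio of 0.952 (0.946 to 0.958). By complex the ratio was 0.944 for complex I, 0.944 for complex III, 0.908 for complex IV and 1.02 for ATP synthase. The single nuclear member past 1.5-fold was COX6B2, which went from 18.2 to 11.4 CPM, a ratio of 0.626 (0.533 to 0.734), while COX6B1 went from 363 to 333 CPM. Of the nuclear members, NDUFS1 had the highest ratio, 1.24. The mitochondrial genes together had a ratio of 0.889 (0.887 to 0.892), but were not uniform: COX3, a core subunit of complex IV, had the lowest at 0.801 and ND6 the highest at 1.51 (14.3 to 21.6 CPM).

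In germ-like cells the sum of nuclear subunits had a ratio of 1.07 (1.05 to 1.09), and 29 of 40 measured subunits were above 1, beside 71.1% of all features, which is about the same share. With TMM scaling, which shifted all log2 ratios of this class by -0.25, the summed log2 ratio turned from 0.10 to -0.15. Its direction thus depends on the scaling. UQCRC2, a complex III core protein, was named by the rule. It went from 50.8 CPM (236 UMIs) to 83.6 CPM (147 UMIs), a ratio of 1.64 (1.33 to 2.03). SDHD, a complex II anchor, was at 6.46 and 2.84 CPM on 30 and 5 UMIs. The mitochondrial genes together had a ratio of 1.02 (1.01 to 1.03), which went to -0.07 on the log2 scale without the mitochondrial limit and to -0.22 with TMM scaling, so its direction depends on both choices. Within them, ND3 had the highest ratio, 1.34, and COX2 the lowest, 0.773.

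In stroma the nuclear subunits had a ratio of 0.997 (0.985 to 1.01) and the mitochondrial genes 1.08 (1.07 to 1.09), with 11 of 12 of the latter above 1, beside 57.1% of all features. ND6 went from 10.8 to 16.4 CPM, a ratio of 1.52 (1.1 to 2.12), and COX3 was lowest of the mitochondrial genes at 0.920. The other stromal member past the fold was COX6B2, at 3.99 and 2.47 CPM on 20 and 21 UMIs. In endothelium the corresponding sums were 0.993 and 1.12. Its 2 members past the fold were assembly factors on few UMIs: NDUFAF1 at 24.8 and 11.5 CPM (38 and 17 UMIs) and NDUFAF5 at 13.1 and 25.8 CPM (20 and 38 UMIs). COX3 had a ratio under 1 in each of the 6 classes, from 0.747 in lymphoid-like to 0.975 in endothelial-like cells. The 6 comparisons share the E85 and E105 libraries, so a difference between those libraries would act on all of them. The share of all features under 1 in each class is not given here.

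Macrophage-like cells, 87 against 123 cells, held the largest number of members past the fold, 7 of 17 over the 6 classes. ND4L went from 203 to 385 CPM, a ratio of 1.90 (1.39 to 2.62), while ND4, on the same messenger and not separable from it, was at 2651 and 2713 CPM. The complex I subunit NDUFS5 went from 246 to 391 CPM, 1.59 (1.19 to 2.15), and the complex I subunit NDUFA9 from 49.9 to 104.8 CPM, 2.10 (1.12 to 4.18). These 3 genes were higher at E105, as were all 7 past the fold in this class. Over all features, 554 of 3288 were higher and 329 lower in this class. Its nuclear subunits together had a ratio of 1.11 (1.05 to 1.17), with complex IV at 1.32 (1.12 to 1.54). Its mitochondrial genes together were at 0.948 (0.923 to 0.973). In lymphoid-like cells UQCRC1 went from 109 to 69.5 CPM, a ratio of 0.635 (0.430 to 0.945). The nuclear subunits of that class together had a ratio of 0.896 (0.860 to 0.933) and its mitochondrial genes one of 0.832.

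**Figure D4:**
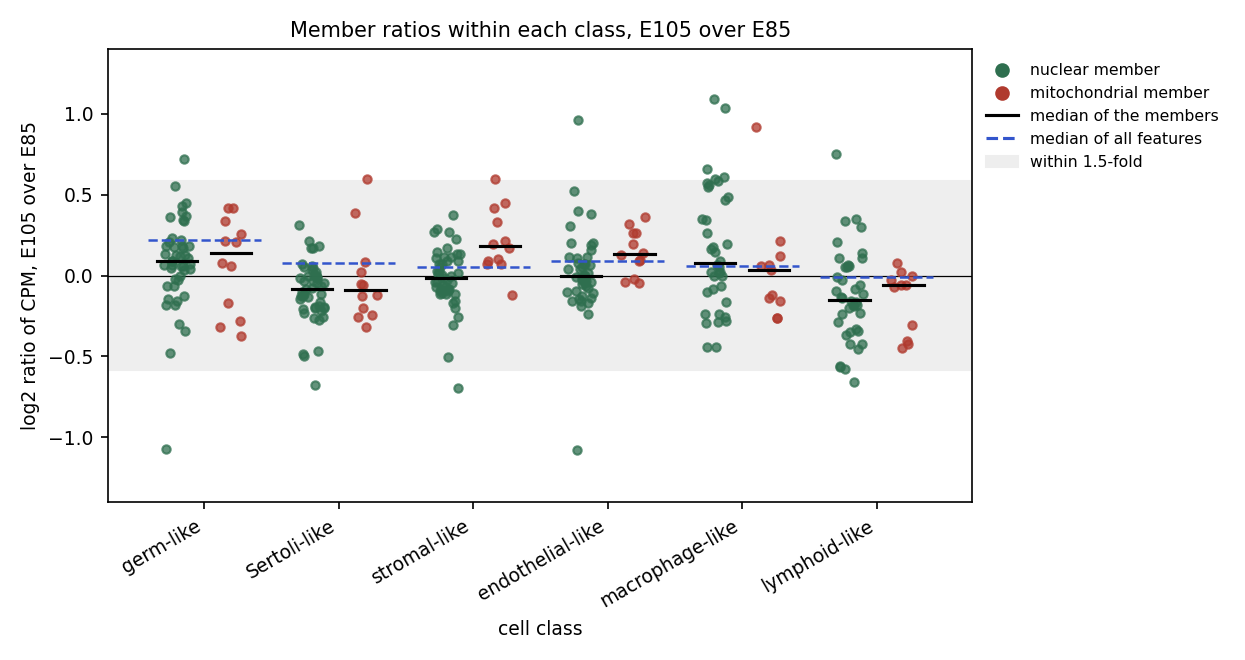
log2 ratio of CPM at E105 over E85 (y axis) for each member with at least 20 UMIs, by cell class (x axis), nuclear members in green and mitochondrial members in red. Black lines are the members' medians, dashed lines the medians of all features and the grey band marks 1.5-fold; most members lie within the band in each class.

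Against E85, the library labelled E125 had lower nuclear members in the 3 classes that could be compared, and this was clearest in stroma. The 43 nuclear subunits summed to 8818, 8787 and 6302 CPM in E85, E105 and E125 stroma, so the ratio to E85 was 0.715 (0.707 to 0.723). In endothelium they were at 7919, 7860 and 6445 CPM, and in macrophage-like cells at 8094, 8987 and 6285 CPM. E85 and E105 thus lay together in stroma and endothelium, and the third library below them. The median stromal cell had 0.875%, 0.867% and 0.624% of its UMIs in nuclear subunits. Stage, kind of tissue, library and stromal make-up cannot be told apart here.

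In stroma 28 of 48 measured nuclear members were at least 1.5 times lower and 0 were higher, while 26.5% of all features were lower and 27.8% higher. With TMM scaling the summed ratio was -0.37 on the log2 scale, against -0.48 by total UMIs. The median log2 ratio of nuclear members was -0.71, against -0.05 over all features. By complex, the summed ratio was 0.799 (0.788 to 0.811) for complex I, 0.606 (0.475 to 0.775) for complex II, 0.485 (0.459 to 0.511) for complex III, 0.662 (0.639 to 0.686) for complex IV and 0.551 (0.537 to 0.566) for ATP synthase. All 4 complex III subunits and 4 of 5 ATP synthase subunits were past the fold, against 10 of 25 of complex I. COX8A, a small complex IV subunit, was at 100.4, 87.5 and 35 CPM in E85, E105 and E125, a ratio to E85 of 0.349 (0.308 to 0.395). NDUFA5 was at 94.4, 87.2 and 40.4 CPM, UQCRC1 at 54.9, 71.1 and 23.4 CPM, and NDUFA1 at 174, 183 and 81.1 CPM. In each of these 4 genes the third library was less than 0.5 times the first. UQCRC1 was also higher in the second than in the first, with a ratio of 1.30 (1.12 to 1.5), while the other 3 genes were close in those libraries. Some subunits went the other way, such as 2 that were picked after their values were seen: NDUFS5 was at 616, 605 and 768 CPM and NDUFA10 at 57.9, 51.5 and 74.8 CPM.

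The mitochondrial genes of stroma were not lower along with the nuclear ones. Their share was 3.22%, 3.47% and 3.33% in E85, E105 and E125, a ratio to E85 of 1.03 (1.03 to 1.04). It turned to -0.16 on the log2 scale among cells with at least 3000 UMIs, so its direction is not fixed. Single genes moved apart: ND2 and ND3 had ratios of 1.5 and 1.51 and COX3 1.41, whereas COX2 was at 0.806 and COX1 at 0.832. ND4L was listed at 0.529 and its partner ND4 at 0.998, and ATP6, which overlaps ATP8, at 0.733. ND6 was highest, at 2.20 (1.64 to 2.98). Stroma accordingly had 3.65, 3.95 and 5.28 mitochondrial UMIs per nuclear subunit UMI in the 3 libraries.

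In endothelium 14 of 44 nuclear members were lower and 1 higher, while 16.5% of all features were lower and 30.2% higher. The median log2 ratio was -0.38 against 0.12 over all features. NDUFB3, an accessory complex I subunit, was at 234, 210 and 102 CPM in E85, E105 and E125, with a ratio to E85 of 0.434 (0.378 to 0.498). COX6B1 was at 298, 276 and 165 CPM, COX8A at 66.6, 76.0 and 32.1 CPM and ND4L, at E85 and E125, at 416 and 228 CPM, with its partner ND4 at 4042 and 2866 CPM. The higher member was COX7A1, at 20.2, 29.2 and 43 CPM. In macrophage-like cells 16 of 37 nuclear members were lower and 3 higher, beside 16.8% and 27.6% of all features. Of the named members, NDUFA13, ATP6 and ATP5MC3 had ratios of 0.644, 0.648 and 0.635, and NDUFS5 one of 1.74 (246 to 428 CPM), on 69 to 294 UMIs.

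Over the 3 classes, 37 nuclear members were measured in each, 28 of them had a ratio below 1 in each, and 8 were at least 1.5 times lower in each. Of all features measured in the 3 classes, 23.4% were below 1 in each and 3.86% at least 1.5 times lower in each. The 8 were NDUFB2, NDUFB3, NDUFB6, NDUFA5 and NDUFAB1 of complex I, UQCRC1 of complex III and COX6B1 and COX8A of complex IV. The 3 comparisons share their 2 libraries, so a difference between those libraries would act on all of them.

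**Figure D5:**
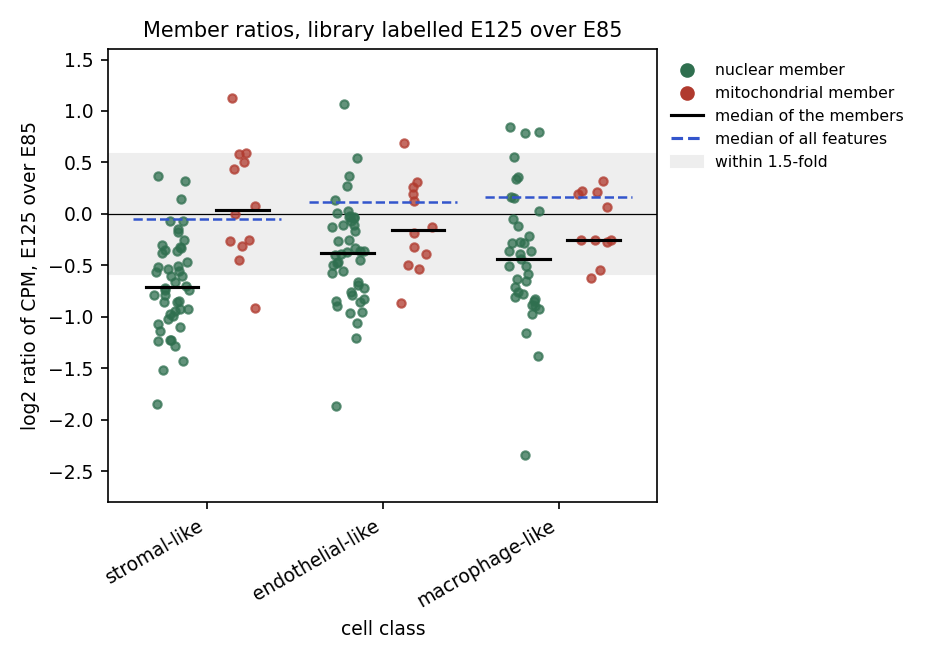
log2 ratio of CPM in the library labelled E125 over E85 (y axis) for each member with at least 20 UMIs in the 3 classes held by both (x axis), nuclear members in green and mitochondrial members in red. Black lines are the members' medians and dashed lines those of all features; in stroma the nuclear median is -0.71 and that of all features -0.05.

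Genes around the respiratory chain were followed in 5 lists. Of 33 assembly factors outside the NDUFAF genes, 28 were measured in stroma in the comparison of E125 with E85, of which 16 were lower and 2 higher (median log2 ratio -0.73). COX17, a copper carrier for complex IV, went from 66.4 to 30.7 CPM, and TMEM70, an ATP synthase assembly factor, from 16 to 6.26 CPM. SURF1, a complex IV assembly factor, went the other way, from 5.99 to 27.6 CPM. Of 20 genes of the tricarboxylic acid cycle and its entry enzymes, 18 were measured, with 9 lower and 3 higher. Those higher included PDK4 and PDK1, kinases that switch off pyruvate dehydrogenase, at 50.5 and 236 CPM and at 2.99 and 15.2 CPM. SUCLG1, a succinyl-CoA ligase subunit, went from 84.4 to 37.5 CPM.

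Electron carriers and mitochondrial transporters had 6 of 14 lower and 2 higher, with VDAC2, an outer membrane pore, at 46.5 and 20.8 CPM. Mitochondrial transcription genes and their nuclear regulators had 5 of 20 lower and 4 higher, with a median log2 ratio of -0.18 but a summed ratio of 1.4. YY1, a general transcription factor of that list, went from 89.0 to 272 CPM. Uncoupling and oxidant defence had 2 of 7 lower and 1 higher, with PRDX3, a mitochondrial peroxidase, at 18.6 and 6.53 CPM. These counts stand beside 26.5% of all features lower and 27.8% higher in stroma.

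From E85 to E105, 3 of 20 tricarboxylic acid cycle genes were higher in Sertoli-like cells and 4 of 17 in germ-like cells, with 0 lower in either. Over all features, 1559 of 11736 were higher and 600 lower in Sertoli-like cells. In germ-like cells 2243 of 10512 were higher and 476 lower. The counts of the other lists in these classes stand beside the same background. PDK1 was higher in Sertoli-like cells (1.43 to 6.20 CPM), germ-like cells (20.9 to 60.3 CPM) and stroma (2.99 to 11.1 CPM). The assembly factors had 1 of 30 higher and 1 lower in Sertoli-like and 6 of 24 higher in germ-like cells. In germ-like cells YY1 was at 152 and 257 CPM, and GPX4, a lipid peroxidase, at 17.7 and 35.2 CPM. Transcription genes and regulators had 0 of 18 past the fold in Sertoli-like and 4 of 21 higher in germ-like cells.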

How the data were processed

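The counts are the whole-number UMIs per gene and barcode that the authors deposited for 3 libraries. Cell Ranger is given as version 3.1 per the submitters' processing notes and as 6.0.0 per the file headers, so the version is uncertain; for the genome build and annotation, none is named, and they count as not given in the sources used here. The members and gene lists were chosen with earlier results of these data known. Barcodes were filtered and gated as the report states; "on" means at least 1 UMI and at least 0.5 times the mean CPM over the pooled libraries, and 6 markers were used for small classes. No doublet caller was run, and the margin of 2 markers leaves out barcodes with markers of several classes. The oocyte gate, which leaves germ markers out of the competing lists, was chosen after seeing that the planned gate kept 30 barcodes. UMIs were summed per class and library and divided by the class total; printed ratios are of plain CPM, with exact binomial intervals, whereas single-gene fold calls and median log2 ratios add 0.5 UMIs to each count, so that a gene at the border can fall on another side of 1.5 (SciPy 1.17.1, pandas 2.3.3). With 1 library per stage no test was possible. Named genes had at least 50 UMIs and a ratio of 1.5 or more either way, ordered by the interval bound nearest 1, with up to 8 in germ-like and Sertoli-like and 4 in other classes; class-enriched members, isoform pairs and the extreme mitochondrial genes were also named. The values of 1 member are not reported here, although sums and counts include it. The calls were checked on simulated counts that hold counting error only, so this check does not cover variation between animals or libraries. TMM scaling (edgeR 4.0.16) was an alternative only.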

Additional observations from a re-analysis of the deposited data

Results flagged for a closer look

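Members whose E105 to E85 ratio went at least 1.2-fold one way in one class and the other way in another, with both intervals away from 1, were picked out; these differences were not tested. NDUFS5 had a ratio of 1.59 in macrophage-like and 0.826 in Sertoli-like cells. NDUFA13 was at 1.38 in macrophage-like and 0.822 in lymphoid-like cells. UQCRC1 was at 1.30 in stromal-like and 0.635 in lymphoid-like cells. ND2 was at 1.26 in germ-like and 0.809 in lymphoid-like cells. Each of these 4 genes involves macrophage-like or lymphoid-like cells, which had 60 to 141 cells per library. The share of all features that meet the same rule is not given here, so whether 4 members is many or few cannot be told.

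A further signal lay in barcodes that the other results leave out. Above the 20% mitochondrial limit were 25% (20.3 to 30.2%) of germ-gated barcodes at E85 and 20% (13 to 28.7%) at E105.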

How the results depend on the processing

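Levels here are log2 ratios of summed CPM, E105 over E85 unless stated, and the counts are of members past 1.5-fold. The alternatives for the library labelled E125, and the minimum of 500 UMIs, were added after seeing the data. The cause of each move was not tested.

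With TMM scaling, nuclear subunits went from -0.07 to -0.16 in Sertoli-like cells, from 0.10 to -0.15 in germ-like cells, from -0.0049 to -0.040 in stroma and, for E125 against E85, from -0.48 to -0.37 in stroma. Mitochondrial genes went from -0.17 to -0.26, from 0.03 to -0.22, from 0.11 to 0.074 and from 0.05 to 0.16 in that order. The counts went from 2 to 1 in Sertoli-like, 4 in germ-like and 1 in stromal-like cells. TMM shifted all features by -0.25 in germ-like and -0.12 in endothelial-like cells, and for E125 by 0.12 in stroma and -0.13 in macrophage-like cells.

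With means of per-cell shares, nuclear subunits were at -0.10 in Sertoli-like cells, 0.0054 in stroma and, for E125, -0.46 in stroma. Mitochondrial genes were at -0.065, 0.10 in germ-like cells and, for E125, 0.12 in stroma, with counts of 4 in Sertoli-like, 4 in germ-like and 1 in stromal-like cells. With no mitochondrial limit, mitochondrial genes were at -0.071 in germ-like cells, 0.092 in stroma, 0.077 in E125 stroma and 0.035 in macrophage-like cells (-0.08 with the limit), and the Sertoli-like count was 1. The germ-like share became 10.2% at E85 and 9.68% at E105, and the oocyte-like share 3.05%. With a 10% limit, nuclear subunits were at -0.062 in Sertoli-like and 0.13 in germ-like cells. Mitochondrial genes were then at -0.21, 0.0045, 0.083 in stroma and 0.094 in E125 stroma, and the Sertoli-like count was 1.

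With at least 3000 UMIs per cell, mitochondrial genes were at -0.19 in Sertoli-like cells, 0.066 in stroma and -0.16 in E125 stroma. Nuclear subunits were at -0.043 in stroma and -0.51 in E125 stroma, and the Sertoli-like count was 1. With the stricter gate, mitochondrial genes were at -0.18 in Sertoli-like cells, 0.0020 in germ-like cells, 0.14 in stroma and 0.063 in E125 stroma, nuclear subunits at -0.50 in E125 stroma, the counts at 1 in Sertoli-like and 1 in stromal-like cells, and the E105 germ-like share at 8.07%. With the looser gate, mitochondrial genes were at 0.047 in germ-like cells and 0.094 in stroma, the counts at 1 and 1, and the germ-like shares at 8.03% and 8.30%.

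With at least 5 UMIs the count was 5 in Sertoli-like and 4 in germ-like cells. With at least 100 it was 1 in germ-like and 1 in stromal-like cells, and with 500 it was 0 in both. Oocyte-like cells with at least 10000 UMIs gave a mitochondrial share of 2.64%. No library could be left out, and no paired analysis was possible because each stage has 1 library. The small classes limit the depth of single members.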
